A study of Mus musculus with 16 samples.

Results

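The genes described here are 39 that fold proteins in the endoplasmic reticulum (ER), remove misfolded ones, or sense and relay ER stress. They were chosen by name: a row of the deposited count and TPM tables belongs to the group when its gene symbol equals 1 of the 39 on the list. All 39 were found among 55487 rows, and all 39 passed the low-count filter that left 13905 genes to test. They were measured by RNA sequencing of 16 whole livers of mice fed a high-fat diet, in a study that compares spliced forms of JNK1 and JNK2, kinases activated by stress, in hepatocytes. There were 6 livers named Flpo, which the series gives as LJ1J27b and hepatocyte-specific, 5 named Cre, given as LJ1J27a, and 5 named GFP, given as LJ1J2control. Cre and Flpo are enzymes that recombine DNA at their own target sites, and GFP is a fluorescent protein that recombines none. Every group had the genotype J1 J2 lf/lf on C57/Bl6J, and all ate the same diet, so the controls share both. How the recombinases reached the liver, which promoter drove them and how old the mice were was not given in the sources used here.

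Secreted and membrane proteins enter the ER through the SEC61 channel and fold there with the help of the HSP70 protein BiP, lectin chaperones and disulfide isomerases, while proteins that fail to fold are passed back to the cytosol and degraded. When unfolded protein accumulates, the sensors IRE1, PERK and ATF6 start the unfolded protein response: IRE1 splices Xbp1 mRNA and can activate JNK, PERK phosphorylates the initiation factor eIF2 alpha, and ATF6 is cut in the Golgi to release a transcription factor. Liver secretes large amounts of plasma protein, and the spliced form of XBP1 and the cut form of ATF6 both raise transcription of chaperone and degradation genes there.

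Total counts ran between 28549613 and 36043322 in Flpo, 27929393 and 33720727 in Cre and 28314911 and 31249837 in GFP. Mapk8 and Mapk9, which encode JNK1 and JNK2, averaged 13.5, 11.4 and 11.7 CPM and 46.3, 33.1 and 42.7 CPM in Flpo, Cre and GFP. Neither was called by edgeR in any comparison (smallest adjusted p = 0.0784, for Mapk9 in Flpo against Cre). Mapk9 passed in 7 of 28 alternative settings in Flpo against Cre (smallest adjusted p = 0.015) and in 1 in Cre against GFP (0.0304), and a count summed over a gene cannot show which isoform was made. CPM values are counts scaled to a common library size with trimmed means of M values (TMM). The 6 hepatocyte markers summed to 86777 to 103987 CPM in Flpo, 96031 to 115210.0 in Cre and 83215 to 105784 in GFP, and Alb alone averaged 63358, 74801 and 62471 CPM. The 8 stellate cell and fibroblast markers, none of them at 0, summed to 189.8 to 303 CPM in Flpo, 107 to 194 in Cre and 170.3 to 279 in GFP, and 4 of the 8 were called lower in Cre than in GFP (50%, against 5.58% of all genes). The part of that difference in the results below was not tested. A score of 14 clock genes (4 counted up, 10 counted down, standardised over libraries) lay between -0.90 and -0.41 in Flpo, -0.15 and 1.07 in Cre and -0.43 and 0.47 in GFP. Flpo and Cre did not overlap in that score, so the group and the phase of the clock at harvest cannot be told apart between them. Together the 39 genes took 0.633% to 0.913% of the counts in Flpo, 0.590% to 0.807% in Cre and 0.558% to 0.734% in GFP. Whether every library is a separate mouse is not in the labels, and p-values here rest on the spread between libraries, which may be technical. In whole liver, fewer cells of a type and less RNA per cell cannot be told apart.

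The response is known to act through short promoter elements, and these are shown because they mark which of the 39 genes carry them. RefSeq windows of the 250 bases before the transcript start (GRCm38.p6) were at hand for 33 of the 39 genes. The ER stress response element (ERSE), searched on both strands as CCAAT and CCACG with any 9 bases between them, was present in 9 of those 33 genes, against 0.113% of all 32851 promoter windows of the same length. Hsp90b1 held 2 such sites and the other 8 genes held 1 each. Each site is printed on its own strand with the fixed letters in capitals.
Hspa5: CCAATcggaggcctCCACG
Hsp90b1 (upstream site): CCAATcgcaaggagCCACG
Hsp90b1 (nearer site): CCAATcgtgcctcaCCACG
Calr: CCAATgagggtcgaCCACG
Canx: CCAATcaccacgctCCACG
Pdia6: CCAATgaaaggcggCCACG
Dnajc3: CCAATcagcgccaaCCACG
Creld2: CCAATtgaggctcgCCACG
Syvn1: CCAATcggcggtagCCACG
Derl3: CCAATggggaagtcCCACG

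The ERSE-II element was searched on both strands as ATTGG and CCACG with any 1 base between them. It was found in Herpud1 alone among the 33 genes and in 0.03% of all windows, and its site there reads ATTGGgCCACG. The Herpud1 window ends in ccaatggatggcagccac, which matches the ERSE up to its last letter. The next base lies outside the window, so whether Herpud1 also holds an ERSE was not tested. The core of the unfolded protein response element, TGACGTGG, was found in Sec24d, Txndc5 and Txndc11 and in 0.563% of all windows. By the GENCODE M21 gene positions, these core sites and the ERSE of Hspa5 lie inside the gene, because GENCODE places the gene start further upstream than RefSeq. The shorter sequence CCACG, which lies inside the ERSE and the ERSE-II and whose reverse complement lies inside the TGACGTGG core, was found in 22 of the 33 genes and in 28.343% of all windows. Xbp1, Os9, Dnajb9 and Ppp1r15a, among others with a window, held neither an ERSE, an ERSE-II nor the core, which says only that those letters are not in the 250 bases. The full windows are given for Hspa5, the usual reporter gene of the response (chr2:34771840-34772089), and for 4 genes that differed between groups: Dnajc3 (chr14:118937682-118937931), Derl3 (chr10:75893148-75893397), Herpud1 (chr8:94386179-94386428) and Sec24d (chr3:123267246-123267495). All 5 lie on the plus strand and are written 5′ to 3′, with the ERSE, ERSE-II or core in capitals, and the Derl3 element runs against the gene.
Hspa5: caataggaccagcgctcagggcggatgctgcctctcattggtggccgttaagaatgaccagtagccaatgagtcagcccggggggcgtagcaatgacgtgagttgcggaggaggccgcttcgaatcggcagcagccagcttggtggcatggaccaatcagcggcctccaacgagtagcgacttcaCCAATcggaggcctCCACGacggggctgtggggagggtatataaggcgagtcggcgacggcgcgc
Dnajc3: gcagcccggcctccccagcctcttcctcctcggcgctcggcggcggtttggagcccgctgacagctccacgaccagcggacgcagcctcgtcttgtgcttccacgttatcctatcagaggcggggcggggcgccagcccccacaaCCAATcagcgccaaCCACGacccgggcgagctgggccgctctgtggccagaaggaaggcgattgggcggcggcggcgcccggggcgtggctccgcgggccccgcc
Derl3: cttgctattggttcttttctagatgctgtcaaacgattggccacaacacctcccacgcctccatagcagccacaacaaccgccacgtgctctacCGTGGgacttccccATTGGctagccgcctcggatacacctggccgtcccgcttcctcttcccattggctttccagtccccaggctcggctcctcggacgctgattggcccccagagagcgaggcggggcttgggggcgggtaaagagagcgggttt
Herpud1: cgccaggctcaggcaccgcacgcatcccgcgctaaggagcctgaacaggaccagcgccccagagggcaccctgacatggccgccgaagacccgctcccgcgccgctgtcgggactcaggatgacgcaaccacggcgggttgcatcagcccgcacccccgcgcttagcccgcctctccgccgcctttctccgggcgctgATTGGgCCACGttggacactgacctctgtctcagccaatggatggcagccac
Sec24d: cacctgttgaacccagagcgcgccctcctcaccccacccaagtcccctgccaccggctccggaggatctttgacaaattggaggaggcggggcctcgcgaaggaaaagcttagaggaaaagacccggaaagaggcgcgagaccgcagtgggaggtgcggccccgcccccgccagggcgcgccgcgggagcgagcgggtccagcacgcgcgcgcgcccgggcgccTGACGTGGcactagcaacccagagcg

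Abundance between genes is compared in TPM, which corrects for transcript length. The disulfide isomerase P4hb was the most abundant of the 39, with a mean of 531 TPM over the 16 livers and a range of 385 to 644. Calr, a lectin chaperone that holds glycoproteins until they fold, followed with 374 TPM, then Herpud1, which organises the membrane complex for ER-associated degradation, with 350.4 TPM. Hspa5, which encodes BiP, had 309 TPM and Hsp90b1, the HSP90 of the ER, 266 TPM. The stress sensors lay near the bottom of the order. Ern1, which encodes IRE1, had 6.74 TPM, Eif2ak3, which encodes PERK, 3.85 TPM, Atf6 9.60 TPM and its relative Atf6b 8.89 TPM. The transcription factor Xbp1 was more abundant than the sensor that splices it, at 99.9 TPM. Derl3, a derlin of the degradation channel, spanned the widest range relative to its mean, 0.979 to 36.6 TPM, and Herpud1 spanned 129 to 642 TPM. Mbtps2, a protease that cuts ATF6, had the lowest mean of the 39 at 2.09 TPM.

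**Figure D1:**
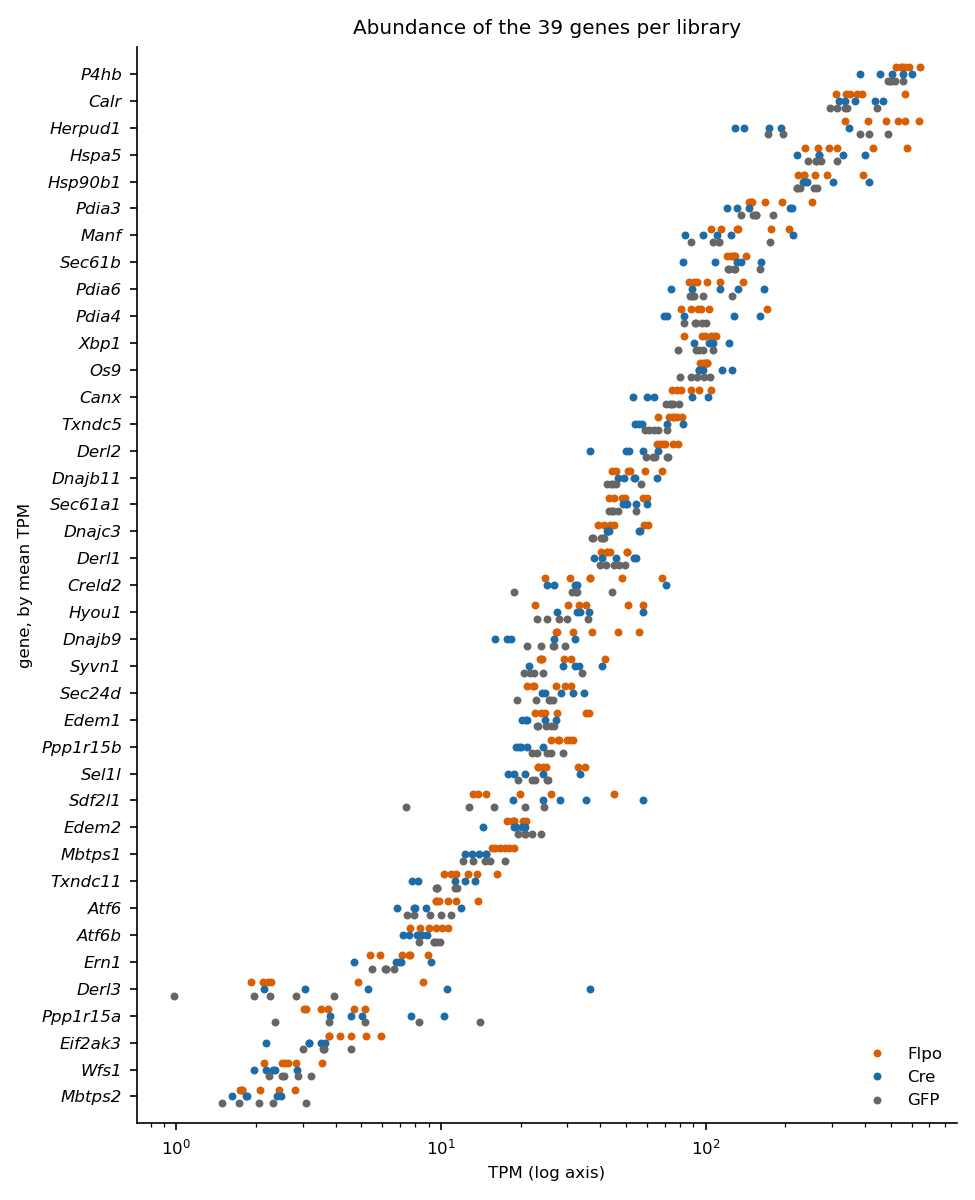
TPM of the 39 genes (log axis) with 1 point for each liver, coloured by group and ordered by the mean over all 16 livers. P4hb, Calr, Herpud1, Hspa5 and Hsp90b1 stand at the top with means of 266 TPM or more, and Derl3 spans 0.979 to 36.6 TPM.

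In Cre against GFP, 5 of the 39 genes rose and 0 fell in edgeR's quasi-likelihood test, at a Benjamini-Hochberg adjusted p under 0.05 over all 13905 genes. Of all genes tested, 9.55% were called in that comparison, 3.97% higher and 5.58% lower, beside 12.8% of the members, all of them higher. Counted without regard to direction, the members' share lies near the background. The 5 were Dnajc3, Xbp1, Os9, Sec24d and Derl3. In Flpo against GFP, 0 of the 39 were called, where 0.0288% of all genes were, and 8 had an unadjusted p under 0.05, where 9.73% of all genes did. In Flpo against Cre, 3 members were higher and 3 lower, 15.4% of the 39 against 13.7% of all genes (7.45% higher and 6.26% lower), which is again near the background. The comparisons share libraries, so their counts are not independent of each other.

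The median log2 fold change of the 39 genes was 0.24 in Cre against GFP, where the median of all genes was 0.00, and 31 of the 39 were above 0 against 50.2% of all genes. Leaving out Cre 2 lowered that median to 0.15, with 30 above 0. The median was 0.16 in Flpo against GFP, with 32 of 39 above 0 against 49.1% of all genes, and both values use the same GFP livers. Without Flpo 1 it was 0.08, with 30 above 0. In Flpo against Cre the median was -0.16 with 14 of 39 above 0 against 49.4% of all genes, and on log2(TPM + 1) it was 0.09 with 25 above 0, where 74.7% of all genes were above 0 and their median was 0.14. Without Cre 2 it was -0.04 with 18 above 0, without Flpo 5 it was -0.09 and without Cre 3 it was -0.11. Scaling by library totals or by TPM moved the median of all genes in Cre against GFP to -0.14 or -0.12, and the members' median to 0.09 or 0.04. Over all genes, 552 were called higher and 776 lower in Cre against GFP under TMM, 300 and 1656 under library totals and 216 and 1919 on log2(TPM + 1). The same counts in Flpo against Cre were 1036 and 870, 1810 and 454, and 2465 and 325. Relative to all genes the members' median in Cre against GFP was 0.24, 0.24 and 0.17 under TMM, library totals and log2(TPM + 1), and in Flpo against Cre it was -0.16, -0.16 and -0.05.

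**Figure D2:**
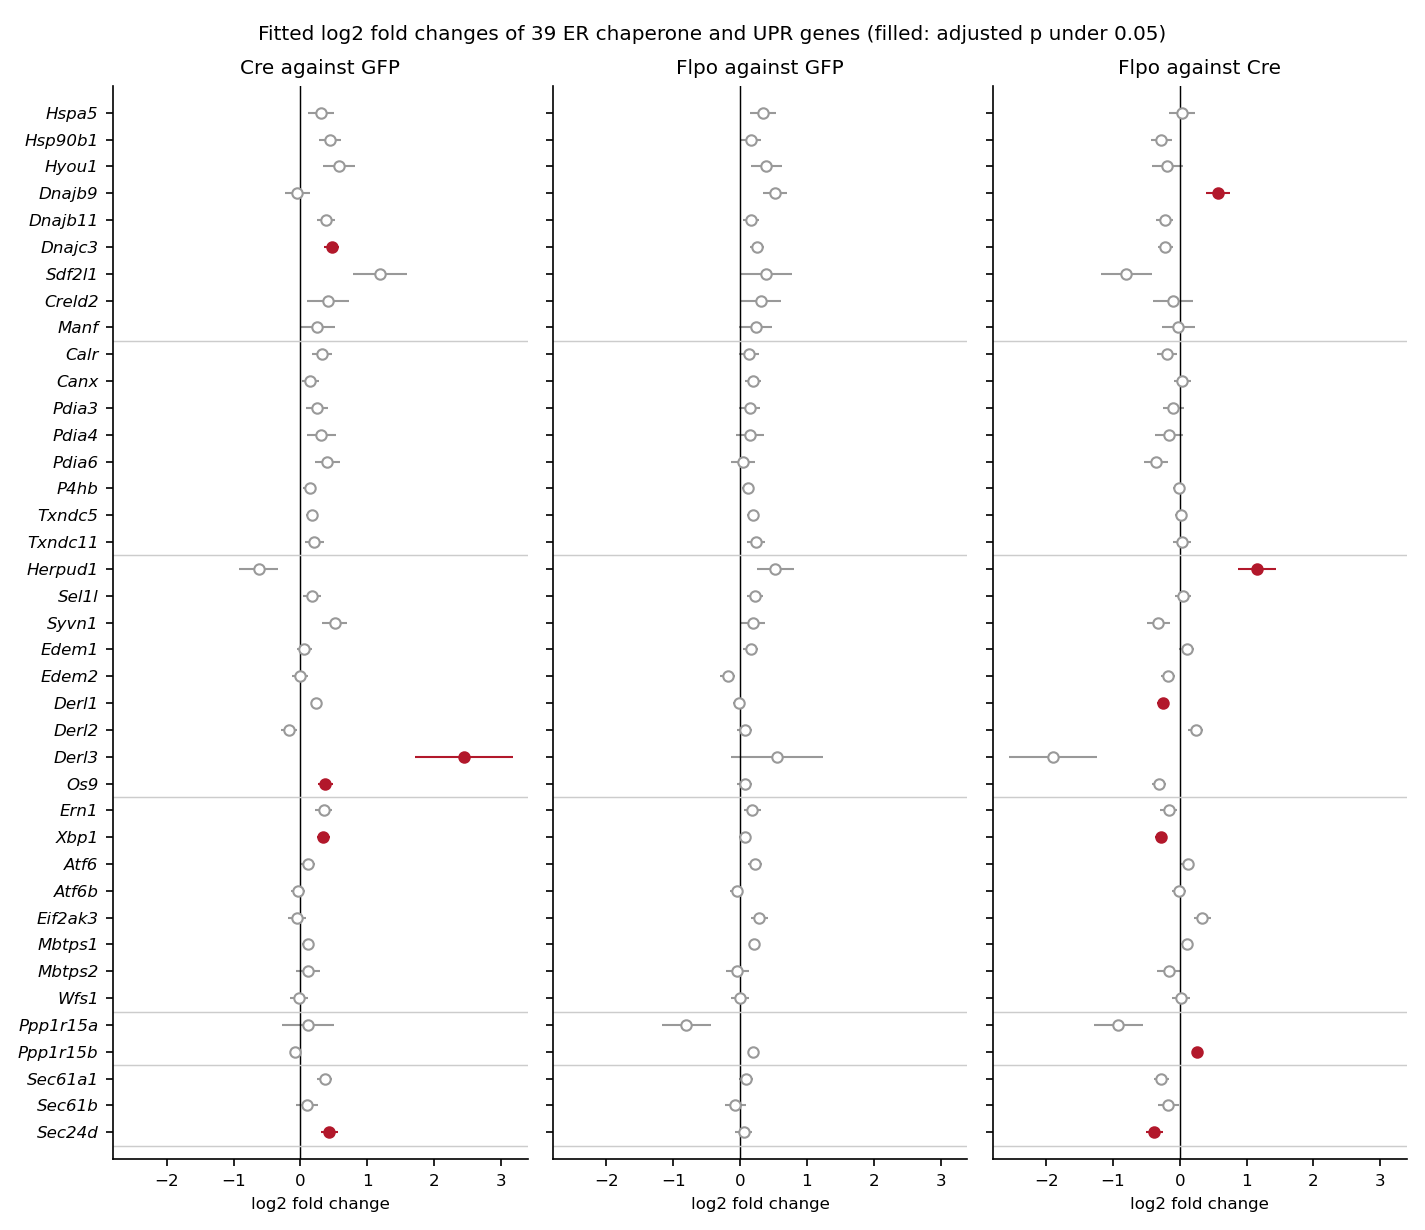
Fitted log2 fold changes of the 39 genes with standard errors in the 3 comparisons, grouped by role, where a filled point marks an adjusted p under 0.05. The filled points number 5 in Cre against GFP, 6 in Flpo against Cre and 0 between Flpo and GFP, and under TMM scaling 16 of the 17 chaperone and isomerase genes lie above 0 in Cre against GFP and all 17 in Flpo against GFP, but on log2(TPM + 1) only 5 of the 8 lectin chaperones and isomerases do so in Cre against GFP.

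Cre livers, which the series ties to the 7a isoforms, were first set against GFP livers. Among the 8 sensors, transcription factors and their proteases, Xbp1 was called. Xbp1 had 185, 182, 173, 182 and 178 CPM in the 5 Cre livers, against 135, 146, 172, 131 and 125 CPM in the 5 GFP livers. In CPM every Cre liver lay above every GFP liver, and the Cre values lay closer together than the GFP values. In TPM neither held: Cre had 105.5 ± 11.3 TPM and GFP 93.9 ± 10.2 TPM (SD), and the groups overlapped. The gene (chromosome 11 from 5520659 to 5525893, plus strand, GRCm38, GENCODE M21) was 1.27-fold higher in Cre (log2 fold change 0.34, SE 0.09, adjusted p = 0.0252). A count over the gene cannot show how much of the mRNA was spliced. Ern1 had 42.7, 41.2, 46.4, 47.6 and 28.5 CPM in Cre, against 33.4, 32.6, 30.9, 31.2 and 34.2 CPM in GFP, where 4 Cre livers lay above all GFP livers and 1 lay below them, and it did not pass (adjusted p = 0.109). The other 6 of this group, Atf6, Atf6b, Eif2ak3, the ATF6 proteases Mbtps1 and Mbtps2 and the ER membrane protein gene Wfs1, had log2 fold changes between -0.05 and 0.12 and adjusted p of 0.456 or more.

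Dnajc3 was the member with the smallest adjusted p in this comparison. It encodes p58IPK, a J-domain cochaperone that hands unfolded protein to BiP. Its values were 203, 269.6, 227, 229 and 203 CPM in Cre, against 161, 154, 165, 158 and 179.6 CPM in GFP. The lowest Cre liver lay above the highest GFP liver. In CPM, Dnajc3 and Xbp1 were the only members whose groups did not overlap upward here (2 of 39, against 3.56% of all genes). On the same scale 0 members and 4.64% of all genes were lower without overlap. Dnajc3 (chromosome 14 from 118937976 to 118981697, plus strand) was 1.39-fold higher in Cre (log2 fold change 0.47, SE 0.11, adjusted p = 0.013).

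BiP itself and the other 7 genes of its group did not pass in edgeR, while DESeq2 also called Sdf2l1 and Dnajb11 higher. Hspa5 had 645, 967, 590.1, 680.1 and 649.8 CPM in Cre, against 484, 569, 699, 521 and 579 CPM in GFP, which overlap (log2 fold change 0.31, SE 0.20, adjusted p = 0.372). Hsp90b1 averaged 709 ± 189 CPM in Cre and 523 ± 67.0 CPM in GFP (SD, n = 5 each, adjusted p = 0.106). Cre 2 was the highest of the Cre livers for both, with 967 CPM of Hspa5 and 1044 CPM of Hsp90b1. Sdf2l1, a partner of the ER J-domain proteins, averaged 26.5 ± 13.0 CPM in Cre and 11.6 ± 5.34 CPM in GFP, and its log2 fold change of 1.19 also missed the threshold in edgeR (adjusted p = 0.0806). The cochaperone gene Dnajb11 stood at 0.39 (adjusted p = 0.0718) and Hyou1, the large HSP70 that exchanges nucleotide on BiP, at 0.58 (0.147). Creld2 at 0.42 and Manf at 0.25, both secreted stress-inducible proteins of the ER, and the cochaperone gene Dnajb9 at -0.05 lay further from it. The 9 genes of this group had a median of 0.42 and 8 of them were above 0, as they also were under library totals (median 0.28) and on log2(TPM + 1) (0.20). Without Cre 2 the median was 0.26 with the same number above 0.

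The 8 lectin chaperones and disulfide isomerases were all above 0 under TMM and library totals, and 5 of them on log2(TPM + 1). None was called by edgeR, DESeq2 or limma-voom, and 1 had an unadjusted p under 0.05 in edgeR, where 24.3% of all genes did. Their median was 0.23 under TMM, 0.13 without Cre 2 and 0.02 on log2(TPM + 1), and the log2 fold changes ran between 0.14 for P4hb and 0.40 for Pdia6, with a smallest adjusted p of 0.2 in this group. Calr had 601, 787, 629.7, 716 and 659 CPM in Cre, against 434, 520.0, 736, 462 and 559.5 CPM in GFP. GFP 3 alone reached into the Cre range. The remaining members were the membrane lectin chaperone Canx (0.15), its partner Pdia3 (0.25), the isomerases Pdia4 (0.31) and Txndc5 (0.17) and the thioredoxin-domain gene Txndc11 (0.21).

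Among 9 genes of ER-associated degradation, Os9 and Derl3 rose. Os9 is a lectin that recognises misfolded glycoproteins. It had 284, 224, 235, 183 and 262 CPM in Cre, against 149, 172, 218, 174 and 204 CPM in GFP. Cre 4 lay within the GFP range, and the fitted rise was 1.3-fold (chromosome 10 from 127095650 to 127121131, minus strand; log2 fold change 0.37, SE 0.11, adjusted p = 0.0428). Derl3 had 1.90, 32.6, 10.3, 4.03 and 2.71 CPM in Cre, against 0.729, 1.74, 3.24, 1.43 and 2.30 CPM in GFP. A single Cre liver, Cre 2, held most of that difference, and its 32.6 CPM was 908 counts, while the lowest liver of the series had 23. Derl3 (chromosome 10 from 75893413 to 75895941, plus strand) had a log2 fold change 2.45, SE 0.73, adjusted p = 0.0457, and without Cre 2 its log2 fold change was 1.33 and it did not pass (adjusted p = 0.154). Plasma cells express Derl3 strongly, and the 8 plasma cell markers summed to 64.1 to 205 CPM in Cre and 39.4 to 68.5 CPM in GFP, with the highest sum in Cre 2. In the other Cre livers the sum was 67.5, 64.1, 120.4 and 84.0 CPM. Of the 7 markers tested, 1 was called higher in Cre against GFP (14.3%, against 3.97% of all genes). The part of plasma cells in the Derl3 difference was not tested.

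Herpud1 was lower in Cre by 0.62 on the log2 scale and did not pass (adjusted p = 0.198). The ubiquitin ligase gene Syvn1 stood at 0.51 (adjusted p = 0.0956) and the derlin gene Derl1 at 0.24 (0.0833). Derl2 (-0.16), the ligase adaptor Sel1l (0.17) and the mannosidase-like genes Edem1 (0.06) and Edem2 (-0.01) had adjusted p of 0.426 or more. Herpud1, Edem2 and Derl2 were the 3 of the 9 below 0 under TMM, where 5 were on log2(TPM + 1).

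Of the 3 genes of entry and exit, Sec24d, which selects cargo for COPII vesicles leaving the ER, rose. It had 70.5, 92.9, 80.0, 71.3 and 102 CPM in Cre, against 47.0, 65.6, 72.5, 62.1 and 61.3 CPM in GFP, and only GFP 3 reached the Cre values. Sec24d (chromosome 3 from 123267455 to 123365641, plus strand) was 1.35-fold higher (log2 fold change 0.44, SE 0.13, adjusted p = 0.0416). The translocon gene Sec61a1 just missed the threshold at 0.36 (adjusted p = 0.0537), and Sec61b stood at 0.10. Of the 2 adaptors that bring protein phosphatase 1 to eIF2 alpha, the stress-inducible Ppp1r15a had a log2 fold change of 0.11 and the constitutive Ppp1r15b -0.08.

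These 5 calls depended on how the libraries were scaled and on single livers. Library totals left Derl3 alone and log2(TPM + 1) left 0, and the count was 2 without Cre 2, Cre 3, GFP 1, GFP 2 or GFP 5, 1 without GFP 4 and 8 without Flpo 1. Dnajc3 passed in 24 of 28 alternative settings, Xbp1 in 21, Sec24d in 15, Os9 in 14 and Derl3 in 9, and all 5 kept a positive sign in all 28.

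**Figure D3:**
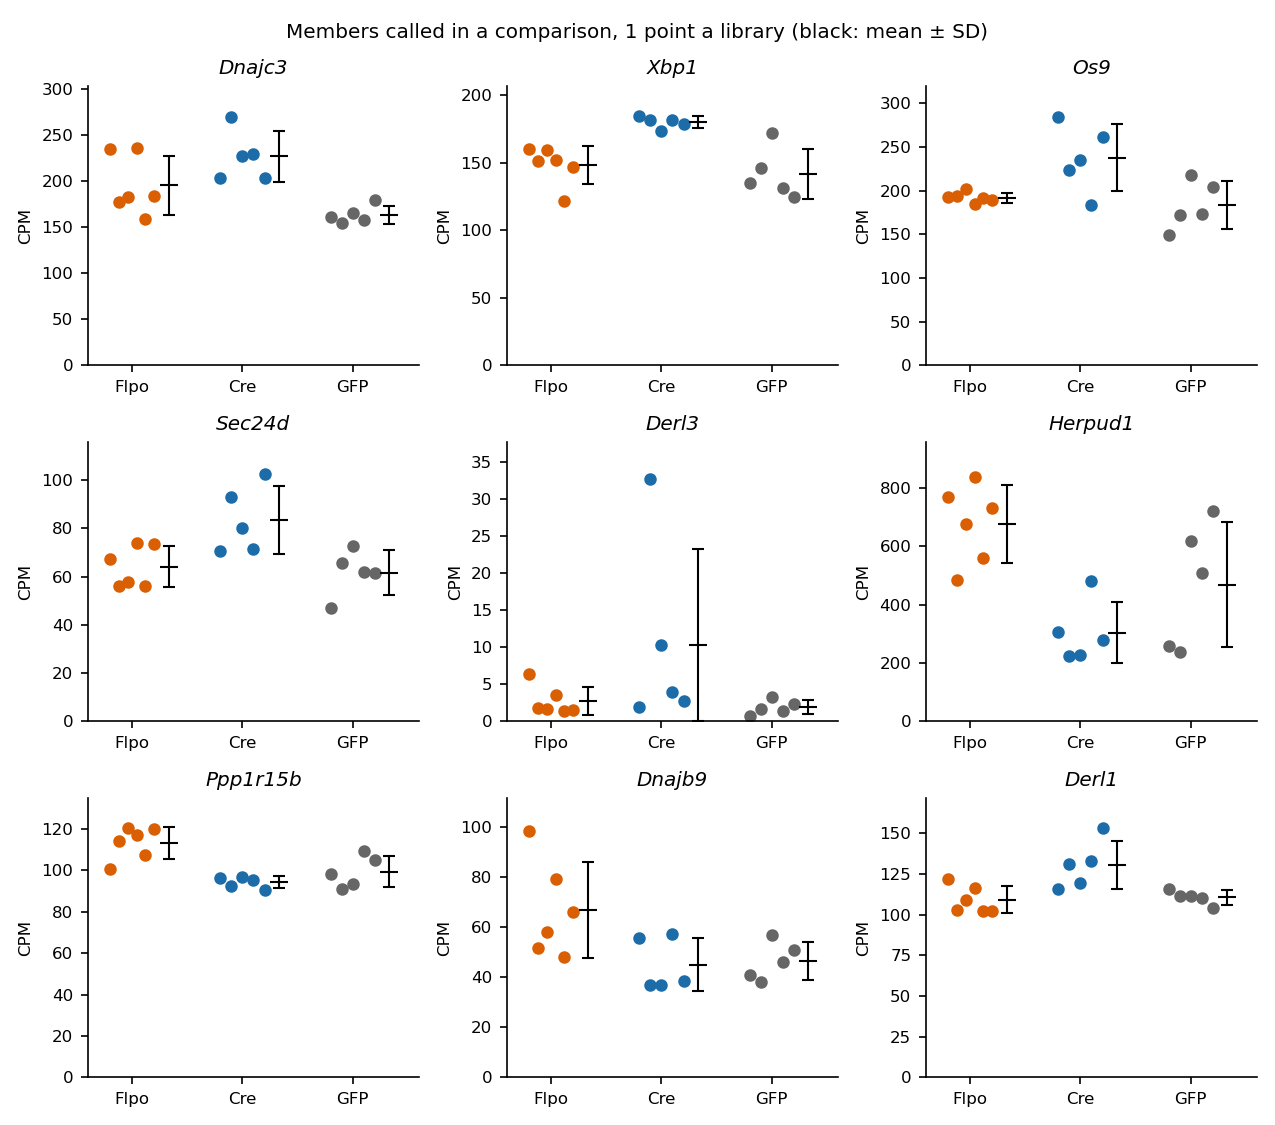
CPM of the 9 genes called in any comparison, with 1 point for each liver in the order Flpo, Cre and GFP, and the mean ± SD in black beside the points (the lower bar of Derl3 in Cre ends at 0). Cre livers of Dnajc3 and Xbp1 lie above all GFP livers, Flpo livers of Herpud1 and Ppp1r15b lie above all Cre livers, and 1 Cre liver of Derl3 stands at 32.6 CPM.

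Flpo livers, tied to the 7b isoforms, were set against the same GFP livers, and no member passed. DESeq2 and limma-voom also called 0 of the 39, as did each of the 28 alternative settings. The smallest adjusted p was 0.386, for Dnajb9, which encodes the cochaperone ERdj4. Dnajb9 had a lowest, median and highest value of 48.0, 61.9 and 98.1 CPM in Flpo, against 40.9, 38.1, 56.7, 45.9 and 50.8 CPM in GFP (log2 fold change 0.52, SE 0.18, adjusted p = 0.386). The groups overlapped, and Flpo 1 and Flpo 4 were the highest. Hspa5 had a lowest, median and highest value of 487, 631 and 1175 CPM in Flpo, with Flpo 1 at 1175 CPM, and its log2 fold change was 0.34 (SE 0.19, adjusted p = 0.583). All 9 BiP-linked chaperone genes were above 0 with a median of 0.31, and all 8 lectin chaperones and isomerases were above 0 with a median of 0.15, under TMM, library totals and log2(TPM + 1) alike. Without Flpo 1 those medians were 0.11 and 0.05, and 5 of the 8 lectin chaperones and isomerases were above 0. Without GFP 1 the median of the BiP-linked genes was 0.19. Xbp1 (0.07), Os9 (0.07) and Sec24d (0.06), which were called in Cre, stood near 0 in Flpo. No member had groups that did not overlap, where 0.676% of all genes were higher and 0.87% lower without overlap.

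The comparison of Flpo with Cre sets the 2 recombinase groups against each other. Xbp1 was lower in Flpo. It had a lowest, median and highest value of 122, 151 and 160.3 CPM in Flpo, against 185, 182, 173, 182 and 178 CPM in Cre. In CPM every Flpo liver lay below every Cre liver, which held for 1 member and for 3.32% of all genes. In TPM the groups overlapped, with 82.8 to 109.8 TPM in Flpo and 90.8 to 122.4 TPM in Cre. Under TMM, Xbp1 was 0.825-fold the Cre level (log2 fold change -0.28, SE 0.09, adjusted p = 0.0441). Sec24d had 56.1, 62.5 and 73.9 CPM in Flpo, as lowest, median and highest, against 70.5, 92.9, 80.0, 71.3 and 102 CPM in Cre, which overlap (log2 fold change -0.38, SE 0.12, adjusted p = 0.0495). Derl1, a derlin of the degradation channel (chromosome 15 from 57869502 to 57892448, minus strand), had 102, 106 and 122 CPM in Flpo, as lowest, median and highest, against 115, 131, 119, 133 and 153 CPM in Cre. Its highest Flpo liver lay above 2 Cre livers, and it was called lower (log2 fold change -0.26, SE 0.08, adjusted p = 0.0413).

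Herpud1 showed the largest rise of the members in Flpo against Cre. It had a lowest, median and highest value of 486, 705 and 839 CPM in Flpo, against 308, 226, 228, 481 and 281 CPM in Cre. In CPM the highest Cre liver, Cre 4, lay just below the lowest Flpo liver, so the groups did not overlap, as in 2 members and in 4.52% of all genes. In TPM the groups overlapped, because Cre 4 (349 TPM) lay above Flpo 2 (336 TPM). The GFP livers fell into a low pair of 259 and 239 CPM and 3 higher livers of 618, 508 and 723 CPM. Herpud1 (chromosome 8 from 94386438 to 94395377, plus strand) was 2.22-fold the Cre level (log2 fold change 1.15, SE 0.28, adjusted p = 0.0124). It overlaps Gm15890 on the other strand, and whether the counting used strand is not stated.

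The clock score and Herpud1 were set side by side. Within Flpo, Flpo 5 and Flpo 2, with the lowest scores (-0.90 and -0.79), had the least Herpud1 (560.3 and 486 CPM), and Flpo 1 and Flpo 6, with the highest (-0.45 and -0.41), had 769 and 732 CPM. In Cre and GFP the livers with low scores had the most. Cre 4, the highest Cre liver for Herpud1, had a score of -0.15 where the other 4 Cre livers had 0.81 to 1.07, although Cre 1, with the highest score of all, had more Herpud1 (308 CPM) than Cre 2, Cre 3 and Cre 5. The low GFP pair had scores of 0.40 and 0.47 and the other GFP livers 0.12, -0.31 and -0.43. With the score as a covariate, the log2 fold change of Herpud1 in Flpo against Cre was 0.16 (adjusted p = 0.972), against 1.15 without it. In Cre against GFP it was -0.07 with the score and -0.62 without. Flpo and Cre did not overlap in the score, so the fit cannot separate the score from the group between them. Of the Cre livers, only Cre 4 had a score within the GFP range, so Cre and GFP are poorly separated from the score too. The fit also held a common slope for all groups, while within Flpo Herpud1 ran the other way. The covariate also left 0 members called in each comparison, and of all genes it left 263 in Cre against GFP, 11 in Flpo against Cre and 0 between Flpo and GFP. Dnajc3 kept its size in Cre against GFP with the score, at 0.48 against 0.47 without it, but did not pass (adjusted p = 0.0923). Derl3 stood at 2.09 and Xbp1 at 0.27 with it.

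**Figure D4:**
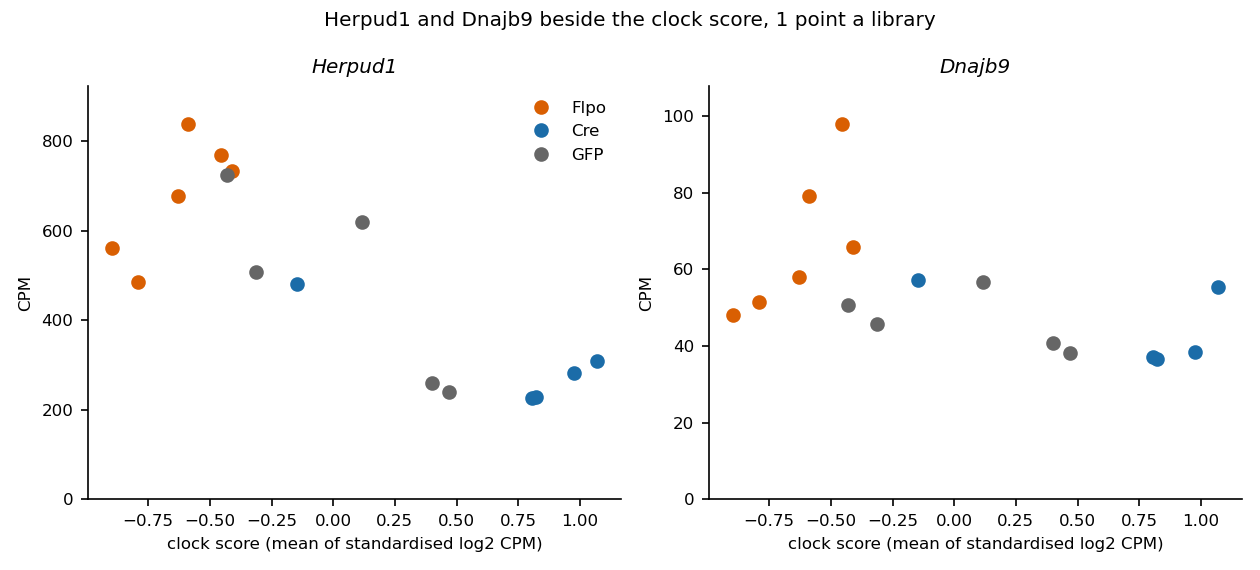
CPM of Herpud1 and Dnajb9 in each liver against the score of 14 clock genes, coloured by group. Cre 1, 2, 3 and 5 and GFP 1 and 2 stand at the right with 226 to 308 CPM of Herpud1, and the other livers of all 3 groups have 481 to 839 CPM.

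Ppp1r15b and Dnajb9 were the other members higher in Flpo than in Cre. Ppp1r15b had 100.4, 116 and 120.2 CPM in Flpo, as lowest, median and highest, against 96.3, 92.3, 96.8, 95.2 and 90.4 CPM in Cre. All Flpo livers lay above all Cre livers, although the fitted rise was only 1.2-fold (chromosome 1 from 133131143 to 133139783, plus strand; log2 fold change 0.26, SE 0.07, adjusted p = 0.0193). Dnajb9 had 48.0, 61.9 and 98.1 CPM in Flpo, as lowest, median and highest, against 55.5, 37.1, 36.7, 57.3 and 38.4 CPM in Cre. Cre 1 and Cre 4 reached into the Flpo range (chromosome 12 from 44205559 to 44210326, minus strand; log2 fold change 0.57, SE 0.18, adjusted p = 0.0473). Without Flpo 1 its log2 fold change was 0.41 and it did not pass (adjusted p = 0.106). Both genes overlap an RNA gene on the other strand, Gm26616 and Mir5627.

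Members that missed the threshold in edgeR included Derl3 at -1.90 (adjusted p = 0.0733), Os9 at -0.31 (0.0688) and Eif2ak3 at 0.34 (0.0878). Hspa5 averaged 723 ± 251 CPM in Flpo (SD, n = 6) and 706 ± 149 CPM in Cre (n = 5), with a log2 fold change of 0.03. Of the 8 lectin chaperones and isomerases 0 were called, by edgeR, DESeq2 or limma-voom, and 0 had an unadjusted p under 0.05 in edgeR, where 27% of all genes did. Ppp1r15a averaged 5.88 ± 1.31 CPM in Flpo and 11.1 ± 4.88 CPM in Cre (-0.92, adjusted p = 0.115). DESeq2 called Derl3, Os9 and Ppp1r15a lower as well, for 9 members in all. The 3 lower calls were lost under library totals and log2(TPM + 1), where the split was 5 higher and 0 lower and 6 and 0. The count of 6 was 2 without Flpo 3, Flpo 6 or Cre 2 and 3 without Flpo 4, Flpo 5, Cre 3 or Cre 5. Herpud1 passed in 27 of 28 alternative settings, Ppp1r15b in 22, Xbp1 and Derl1 in 14 each, Sec24d in 13 and Dnajb9 in 12.

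Other genes of the pathway were taken in 5 lists. Of 27 tested genes of ER folding and glycan quality control, 2 were higher and 1 lower in Cre against GFP, and 1 higher and 2 lower in Flpo against Cre. That is 11.1% of the list in each, against 9.55% and 13.7% of all genes, the shares to hold the other lists against too. Ero1lb, an oxidase that recharges disulfide isomerases, had 38.3, 84.5, 79.1, 58.4 and 36.7 CPM in Cre, against 30.0, 34.5, 40.8, 27.6 and 33.1 CPM in GFP (log2 fold change 0.84, SE 0.22, adjusted p = 0.0254). Prkcsh, the beta subunit of the glucosidase that trims new glycans, was higher in Cre than in GFP (0.34, adjusted p = 0.0427) and lower in Flpo than in Cre (-0.32, 0.0359). In Cre against GFP, Ero1lb passed in 19 and Prkcsh in 14 of 28 alternative settings, and Prkcsh passed in 18 in Flpo against Cre. The prolyl isomerase Fkbp9 went the other way. It had 23.0, 23.6, 19.2, 22.7 and 19.7 CPM in Cre, against 32.3, 36.6, 27.9, 30.0 and 30.9 CPM in GFP, with no overlap (log2 fold change -0.54, SE 0.09, adjusted p = 0.00156), and was higher in Flpo than in Cre (0.45, adjusted p = 0.00282). The related Fkbp11 was lower in Flpo than in Cre (-0.68, adjusted p = 0.0124).

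Of 26 further genes of ER degradation, 3 were higher and 0 lower in Cre against GFP, and 0 higher and 1 lower in Flpo against Cre (11.5% and 3.85% of the list). Nploc4 and Ufd1 encode the cofactors of the ATPase that pulls substrates from the ER membrane. Both rose in Cre, with log2 fold changes of 0.34 (adjusted p = 0.0116) and 0.37 (0.0184), and Ufd1 was lower in Flpo than in Cre (-0.38, 0.00756). The ubiquitin-conjugating enzyme Ube2j1 also rose in Cre (0.29, adjusted p = 0.0413), and passed in 15 of 28 alternative settings. Of 35 genes of the translocon and N-glycosylation, 1 was higher in Cre against GFP and 1 lower in Flpo against Cre, both times Srpr, a subunit of the receptor that docks ribosomes at the ER (2.86% of the list each time). Srpr had 219.6, 202, 212, 201 and 269.6 CPM in Cre, against 166, 166, 168, 157 and 159 CPM in GFP, with every Cre liver above every GFP liver (log2 fold change 0.44, SE 0.09, adjusted p = 0.0046).

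Of 21 COPII and ER export genes, 1 was higher in Cre against GFP, the coat subunit Sec23a (0.43, adjusted p = 0.0403), or 4.76% of the list. In Flpo against Cre 1 was higher and 2 lower, or 14.3%: Mia2, a receptor for large cargo (0.41, 0.014), was higher, and the coat gene Sec13 (-0.39, 0.0375) and Preb, which loads the coat GTPase (-0.30, 0.0385), were lower. In these comparisons Sec23a passed in 16, Sec13 in 15 and Preb in 16 of 28 alternative settings. The list of stress signalling genes, mostly of the PERK and ATF4 arm, held 30 tested genes. Of these, 3 were higher and 2 lower in Cre against GFP (16.7%) and 3 higher and 7 lower in Flpo against Cre (33.3%). All 5 lists were chosen with earlier results of these data known, so these shares do not test for enrichment. Asns, the asparagine synthetase gene and a target of ATF4, had a lowest, median and highest value of 0.248, 0.607 and 2.75 CPM in Flpo, 35.7, 5.71, 10.1, 3.16 and 53.5 CPM in Cre and 0.380, 2.25, 0.661, 1.27 and 0.194 CPM in GFP. Every Cre liver lay above all others. Its log2 fold change was -4.47 in Flpo against Cre (SE 0.84, adjusted p = 0.00269) and 4.50 in Cre against GFP (SE 0.91, adjusted p = 0.00663). Vldlr, a lipoprotein receptor gene, had a lowest, median and highest value of 4.60, 11.0 and 12.4 CPM in Flpo, 2.75, 0.431, 0.448, 2.53 and 1.099 CPM in Cre and 12.5, 7.03, 8.35, 9.42 and 12.3 CPM in GFP. Every Cre liver lay below all others. Its log2 fold change was 2.69 in Flpo against Cre (SE 0.43, adjusted p = 0.000705) and -2.75 in Cre against GFP (SE 0.44, adjusted p = 0.00104). With the clock score as a covariate Asns passed in neither comparison (adjusted p = 0.181 in Cre against GFP and 0.929 in Flpo against Cre) and Vldlr did not pass in Flpo against Cre (0.493). Between Flpo and Cre the score and the group cannot be separated. Atf5, a transcription factor translated when eIF2 alpha is phosphorylated, had a lowest, median and highest value of 217, 318 and 356 CPM in Flpo, 1245, 791, 624.5, 764 and 913 CPM in Cre and 367, 425, 378, 449 and 272 CPM in GFP. Every Cre liver lay above all others. Its log2 fold change was -1.49 in Flpo against Cre (SE 0.17, adjusted p = 2.67e-05) and 1.20 in Cre against GFP (SE 0.18, adjusted p = 0.000403). With the clock score as a covariate, 11 of all genes were called in Flpo against Cre. Atf5 did not pass in 1 of 28 alternative settings there (largest adjusted p = 0.280), and the same held for Fkbp9 (0.536) and Mia2 (0.909). Bloc1s1, whose mRNA is a known substrate of IRE1 outside Xbp1 splicing, was lower in Cre than in GFP (-0.55, adjusted p = 0.0157). Ddit4, an inhibitor of mTORC1 induced by stress, was higher in Flpo than in Cre (1.02, adjusted p = 0.00393). It did not pass in 1 of 28 alternative settings (largest adjusted p = 0.760). In Flpo against GFP, 0 genes of the 5 lists were called by edgeR, DESeq2 or limma-voom, and 0, 2, 0, 3 and 3 had an unadjusted p under 0.05, with the lists in the order given. On log2(TPM + 1), 0 genes of the first 4 lists were higher in Cre against GFP and 4, 1, 2 and 1 were lower, and in Flpo against Cre all 5 lists had more genes higher (2, 3, 3, 4 and 5) than lower (0, 0, 0, 0 and 3).

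Many members varied with Hspa5 among livers of the same group. Each gene's log2 CPM was set against its own group mean, and the deviations were compared with those of Hspa5 over the 16 livers. Hyou1 had a Pearson r of 0.91 and a Spearman rho of 0.79, and Hsp90b1 had 0.91 and 0.84. Creld2 (0.87), Pdia3 (0.86), Dnajc3 (0.84), Dnajb11 (0.84), Manf (0.84), Calr (0.83) and Sdf2l1 (0.82) also had r above 0.8. In all, 17 of the other 38 members had r of at least 0.6, 44.7% of them, against 1.21% of the 13904 genes other than Hspa5. The median r was 0.59 over the members and 0.01 over those genes. Of these 38 members, 21 had an unadjusted p under 0.05 in a 2-sided permutation test within groups with 100000 resamples (55.3%, against 5.37% of all genes). Adjusted over all 13904 genes none passed, and the adjusted p of Hsp90b1 was 0.139 from a permutation p of 1e-05, the smallest the resamples can give. Without Flpo 1 and Cre 2, the 2 livers farthest from the median of Hspa5, the r of Hyou1 was 0.86, that of Hsp90b1 0.81 and the median r 0.52.

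Not all members followed BiP. Ppp1r15b (-0.41), Ppp1r15a (-0.17), Mbtps1 (-0.02), Edem2 (-0.01) and Wfs1 (-0.01) had r below 0, and Os9 (0.10), Mbtps2 (0.13) and Atf6 (0.20) lay near it. Herpud1 had an r of 0.30. The shared variation showed in single livers. Flpo 1 was the highest of the 6 Flpo livers in 23 of 39 members, Cre 2 the highest of 5 in 21 and GFP 3 the highest of 5 in 24. Flpo 5 was the lowest Flpo liver in 22, GFP 1 the lowest GFP liver in 16 and Cre 5 the lowest Cre liver in 14. Flpo 1 was also the most deeply sequenced library, and the part of depth in its levels was not tested.

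**Figure D5:**
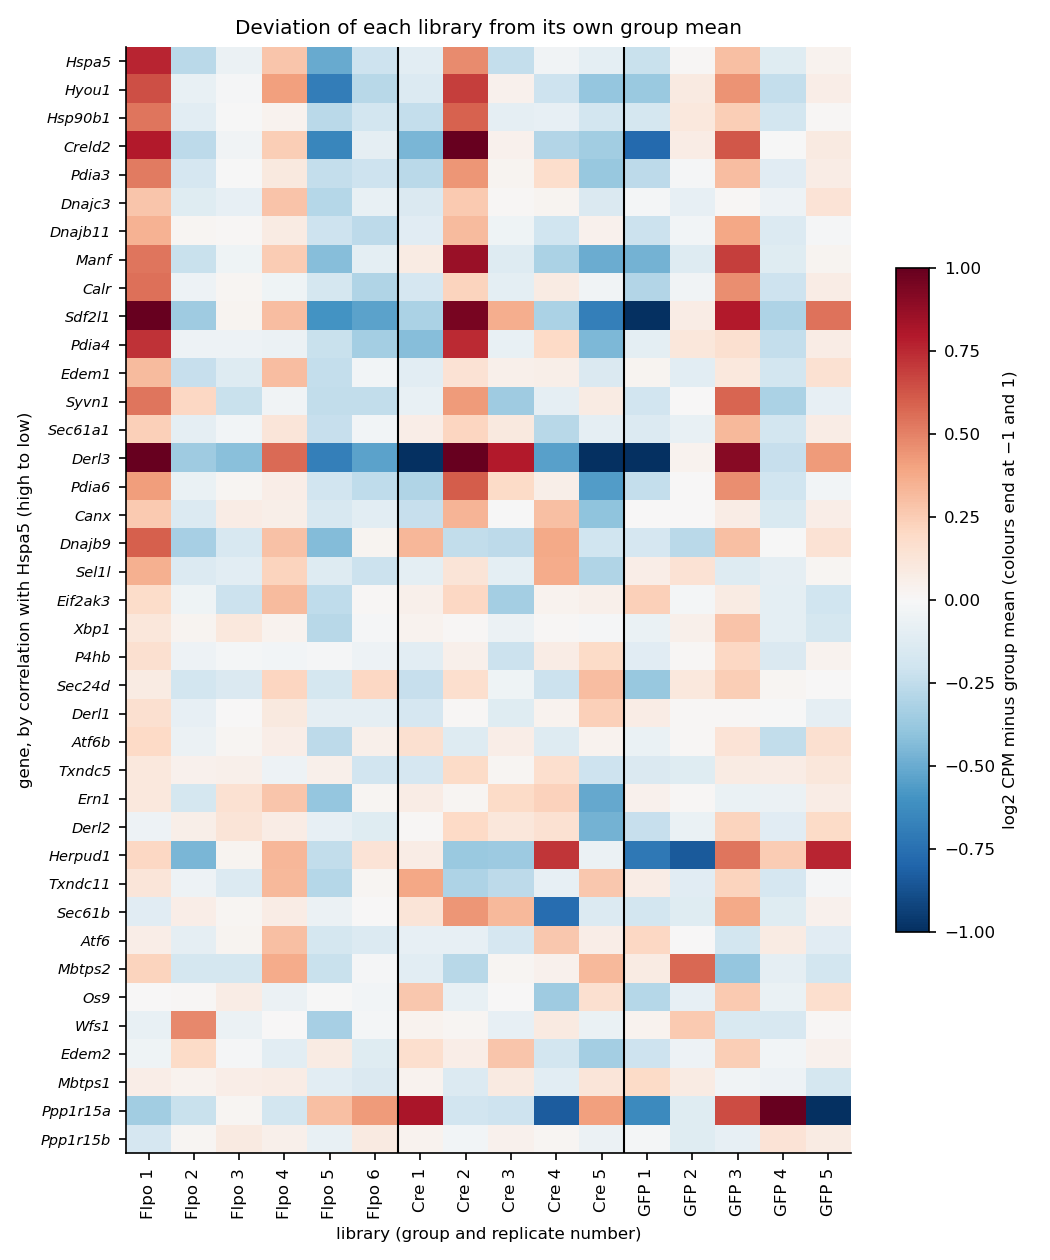
Deviation of each liver from its group mean (log2 CPM, red above and blue below) for the 39 genes, ordered by their correlation with Hspa5, with Flpo, Cre and GFP livers side by side. The upper rows are red together in Flpo 1, Cre 2 and GFP 3, and the bottom rows, with Ppp1r15a and Ppp1r15b last, are not.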

How the data were processed

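Per the labels' protocols, RNA of 16 livers was extracted by RNeasy with DNase treatment, selected for polyA and read from both ends on a NovaSeq instrument. Per the submitters' processing notes, cutadapt and STAR were used with mm10. The authors deposited estimated counts per gene and TPM, and 100% of the deposited estimated counts above 0 were not whole in an exact comparison (31.7% of all values, the others being 0). The counting program, with its annotation and strand setting, was not given in the sources used here. After rounding, the counts went into edgeR 4.0.16 (R 4.3.3): filterByExpr with a minimum count of 10, TMM scaling, 1 robust quasi-likelihood fit of all 16 libraries, 3 contrasts, and a Benjamini-Hochberg adjusted p under 0.05 over all 13905 genes. The standard error is the size of the log2 fold change over the square root of F. The 114 symbols that stand on several rows were kept as separate rows.

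The members, the companion lists, the clock genes and the markers were chosen with earlier results of these data known. Named genes are all 39 members, Mapk8, Mapk9 and, from each companion list in each comparison, up to 4 called genes with the smallest adjusted p. Total counts of 27929393 to 36043322 stand behind the values, and the lowest count of a member in a library was 23, in Derl3. Alternatives were DESeq2 1.42.0, limma 3.58.1 with voom, limma on log2(TPM + 1) or log2(TPM + 0.1), other scalings and filters, a fit of just the pair of groups compared, a block for the replicate number, the 50 most abundant genes left out, the clock score as a covariate, each library left out in turn, and a threshold of 0.01. The fits were tested on simulated data. The highest correlation between 2 libraries was 0.978, so none was treated as a duplicate. Promoter windows are from RefSeq on GRCm38.p6 and gene positions from GENCODE M21 on GRCm38.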

Additional observations from a re-analysis of the deposited data

Results flagged for a closer look

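In 14 of 117 sets of values (a gene in a group), 1 liver stood apart from the others of its group by Dixon's criterion. Chance alone gives about 1 in 20 for independent, normally distributed values. Many of these genes varied together over the same livers, so the 14 sets cannot be held against that rate. Flpo 1 was highest in 6 of them: Hsp90b1 with 832 CPM (next 588), Calr with 855 (next 590), Pdia3 with 523 (next 389), Pdia4 with 299 (next 176), P4hb with 1419 (next 1259.8) and Sdf2l1 with 30.6 (next 17.1). Cre 2 was highest in Hspa5 with 967 CPM (next 680), Hsp90b1 with 1044 (next 656), Creld2 with 76.7 (next 38.0) and Derl3 with 32.6 (next 10.3). GFP 3 was highest in Pdia6 with 210.3 CPM (next 153) and Syvn1 with 87.2 (next 58.1). Flpo 5 was lowest in Xbp1 with 122 CPM (next 147), and Flpo 2 was highest in Wfs1 with 11.1 CPM (next 7.95).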

How the results depend on the processing

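In Cre against GFP the number of genes called was 2135 on log2(TPM + 1), 2000 on log2(TPM + 0.1), 834 with only the 2 groups compared, 263 with the clock score, 475 at an adjusted p under 0.01 and 960 to 1462 with a library left out, and the number of members was 0, 0, 1, 0, 0 and 1 to 8. It was 1 with library totals, 3 with no low-count filter and 9 in DESeq2. In Flpo against Cre the clock score and the threshold of 0.01 gave 11 and 881 genes and 0 members each, no filter gave 1 member, and a library left out gave 1454 to 2189 genes and 2 to 8 members. In Flpo against GFP the number of genes was 72 in DESeq2, 0 in limma-voom, 2 and 1 on the TPM scales, 1 with only the 2 groups, 0 with the clock score or the stricter threshold and 0 to 15 with a library left out, and members stayed at 0. The causes of these moves were not tested. Deviations of same-numbered libraries were at most weakly correlated (-0.156 to 0.117), which cannot exclude a pairing. The labels do not say what the numbers mean, and the main fit used no pairing. The replicate block, fitted without Flpo 6, left 2 members in Cre against GFP, 1 in Flpo against Cre and 0 genes in Flpo against GFP. Of 147 named gene and comparison pairs, 0 changed direction where either fit called the gene, and 163 alternative values over 30 genes changed direction with no call in either.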
